A study of Homo sapiens with 20 samples.

Results

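The MAP kinase cascade genes described here are the rows of the count table whose symbol is MAPK, MAP2K, MAP3K, MAP4K or MAPKAPK followed by a number, and which held at least 100 counts summed over all 20 libraries. Of 58676 genes, 46 had such a symbol and 40 reached the limit. These 40 comprise 11 MAPK genes, 6 MAP2K genes, 16 MAP3K genes, 4 MAP4K genes and 3 MAPKAPK genes. The 3 members just inside the limit were MAP3K10 with 155 counts, MAP3K21 with 190 and MAP3K9 with 194. The 3 genes just outside it were MAP2K6 with 66 counts, MAP4K1 with 19 and MAP3K15 with 8.

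The cells were immortalized human pericytes, the mural cells of small vessels, from the established line CL 05008-CLTH, grown with fetal bovine serum and labelled wild-type. Of 4 groups, the control is labelled as such with no agent named. The others were given recombinant human eNAMPT (extracellular NAMPT, an NAD salvage enzyme found outside cells) at 500 ng/mL, recombinant human PDGF-BB, a growth factor that binds the receptor PDGFRB, at 20 ng/mL, or the combination at the same doses. Treatment lasted 4 hours, and RNA sequencing gave 5 libraries per group. The labels call these libraries biological replicates of 1 cell line without saying how they were separated, so p-values measure the spread between these samples.

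In a MAP kinase cascade a MAP3K phosphorylates a MAP2K, which in turn phosphorylates a MAPK. MAP4K kinases act above the MAP3K tier, and MAPKAPK kinases are substrates of the MAPK tier. The classical branches end in ERK, JNK and p38 kinases. They carry signals from growth factor receptors, including PDGF receptors, and from stress and inflammatory cytokines, mostly by phosphorylation of proteins already present, which transcript counts do not measure.

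Gene counts per library ranged from 2894878 to 4011066, with a median of 3269232.5, and the members together took 0.256% to 0.299% of them. Levels are given as CPM, a library's counts rescaled to a total of 1e6 with TMM factors, and levels compared between genes are CPM per kb of annotated exon. Of the pericyte markers, 10 of 11 had counts (VTN had none) and their summed level was 321 to 444 CPM per library. Their control means ran from 133 CPM for PDGFRB to 0.507 for DES among those with counts, with RGS5 at 21.8. Summed endothelial markers stood at 1.86 to 8.57 CPM. Leukocyte markers summed to 16.8 to 27.6 CPM, mostly CD14 (18.4 CPM in control), with CD68 at 3.42. PTPRC, CD3E and MS4A1 were at or below 0.1242 CPM in every group, and LYZ was at 0 counts. Fibroblast markers reached 3814 to 5193 CPM, mostly COL1A1 and COL1A2 (3354 and 991 CPM in control). In control PDGFRA stood at 97.8, FAP at 31.2, DCN at 5.01 and LUM at 4.08 CPM. These are bulk samples, in which fewer cells of a type and less RNA per cell cannot be told apart.

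MAP2K3 was the only member that rose with PDGF-BB at an adjusted p under 0.05 in the main edgeR fits. It encodes the MAP2K that phosphorylates p38 kinases, and lies on chromosome 17 from 21284672 to 21315240 on the plus strand of GRCh38 (ENSG00000034152). The sequence before its start sites is shown because MAP2K3 is the gene on which the comparisons turn. RefSeq (GRCh38.p14) lists start sites at 21284711 and 21288036. Capitals mark matches, on either strand, to the AP-1 motif (TGANTCA) or to the NF-kB motif (GGG, then A or G, any base, C or T, C or T, then CC). Positions are counted back from the start site. The last 27 bases of the upstream stretch lie in an exon of longer GENCODE 29 transcripts, and 12 and 45 bases directly before the start sites are not shown.

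MAP2K3 before 21284711, chr17:21284461-21284698 (+): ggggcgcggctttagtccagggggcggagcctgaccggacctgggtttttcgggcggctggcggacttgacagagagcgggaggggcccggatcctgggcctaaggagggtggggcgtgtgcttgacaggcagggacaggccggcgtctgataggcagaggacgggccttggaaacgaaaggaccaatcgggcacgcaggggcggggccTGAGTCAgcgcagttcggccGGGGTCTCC
MAP2K3 before 21288036, chr17:21287786-21287990 (+): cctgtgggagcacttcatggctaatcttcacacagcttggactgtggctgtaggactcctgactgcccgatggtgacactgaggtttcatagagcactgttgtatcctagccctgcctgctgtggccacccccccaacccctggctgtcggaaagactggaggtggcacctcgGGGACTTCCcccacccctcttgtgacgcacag

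The upstream stretch is 69.3% G and C. It holds the AP-1 match TGAGTCA starting at position -41 and the NF-kB match GGGGTCTCC at -21. The downstream stretch is 59.5% G and C and holds the NF-kB match GGGACTTCC at -77. These matches do not overlap each other. AP-1 letters were in 7.71% of all 35116 RefSeq promoter windows of 300 bases, and NF-kB letters in 12.3%. Of the 40 members, 37 had a promoter entry, with 52 windows between them. AP-1 letters were in 3 of these windows, NF-kB letters in 12, EGR letters (GCG, then T or G, then GGGCG) in 5 and the serum response element (CC, then 6 bases each A or T, then GG) in 0. EGR letters were in 5.77% and the serum response element in 1.29% of all windows. No binding was measured, and a match describes letters only.

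MAP2K3 stood at 360, 343, 384, 325 and 367 CPM in the control libraries (replicates 1 to 5). With eNAMPT it was at 327, 317, 378, 279 and 439 CPM. With PDGF-BB it was at 611, 548, 573, 572 and 566 CPM, and with the combination at 573, 472, 571, 574 and 601 CPM. All 10 libraries with PDGF-BB lay above all 10 without it, the nearest being combination replicate 2 and eNAMPT replicate 5. Control libraries averaged 356 CPM ± 22.7 (SD, n = 5) and eNAMPT libraries 348 ± 61.8. PDGF-BB libraries averaged 574 ± 23.3 and combination libraries 558 ± 49.98.

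MAP2K3 rose by a log2 fold change of 0.69 (SE 0.08) with PDGF-BB over control, with an adjusted p of 2.3e-07 (edgeR quasi-likelihood test, two-sided, Benjamini-Hochberg over 12111 genes). The combination exceeded control by 0.65 (SE 0.08, adjusted p 4.52e-07, edgeR), and exceeded eNAMPT alone by 0.68 (SE 0.08, adjusted p 2.45e-07, edgeR). Averaged over cells without and with eNAMPT, the PDGF-BB effect on MAP2K3 was 0.69, with a 95% interval of 0.57 to 0.80 (adjusted p 9.36e-12, edgeR). These comparisons share control and treated libraries and are not independent of each other. In the authors' deposited table, the log2 fold change of MAP2K3 for control over PDGF-BB was -0.62, with an adjusted p of 2.26e-12. Fold sizes there are not comparable with those of edgeR for every gene. For MAP3K21, control over the combination was -0.29 there, while the combination over control was 1.31 in edgeR.

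Scaling by spike-in transcripts, the added RNA that took 1.57% to 2.91% of counts in the libraries, left 2 of these calls unmade. Under it MAP2K3 stood 0.53 higher with the combination than in control (adjusted p 0.358, edgeR) and 0.55 higher than with eNAMPT (adjusted p 0.353, edgeR), while PDGF-BB over control remained called at 0.73 (adjusted p 0.031, edgeR). For the average PDGF-BB effect 1 of 3 tested epithelial markers was called, KRT18 (log2 fold change 0.36, adjusted p 3.31e-04, edgeR), and 1 of 9 tested pericyte markers, CSPG4 (0.28, adjusted p 0.0272, edgeR). Of all genes tested, 3.96% were called for that effect. PDGFRB stood at 133 CPM in control and 134 with PDGF-BB. Summed levels of the 6 epithelial markers were 160 to 203 CPM in control and 142 to 190 in eNAMPT libraries, against 177 to 244 after PDGF-BB and 205 to 259 after the combination. KRT18 made up most of these sums, at 161 CPM in control and 190 with PDGF-BB on average, while KRT8 stood at 11.3 and 9.93, KRT7 at 4.88 and 4.86, and EPCAM and CDH1 at or below 0.671 in every group. The part of other cell types in the MAP2K3 result was not tested.

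eNAMPT gave no call for MAP2K3. Its log2 fold change with eNAMPT over control was -0.03, with a 95% interval of -0.20 to 0.14. On the PDGF-BB background, the combination differed from PDGF-BB alone by -0.04 (-0.21 to 0.12). The interaction, which sets the eNAMPT effect on the PDGF-BB background against that in cells with no PDGF-BB, was -0.01 (-0.25 to 0.23, adjusted p 0.999, edgeR). The intervals leave room for eNAMPT effects below those bounds in size.

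**Figure D1:**
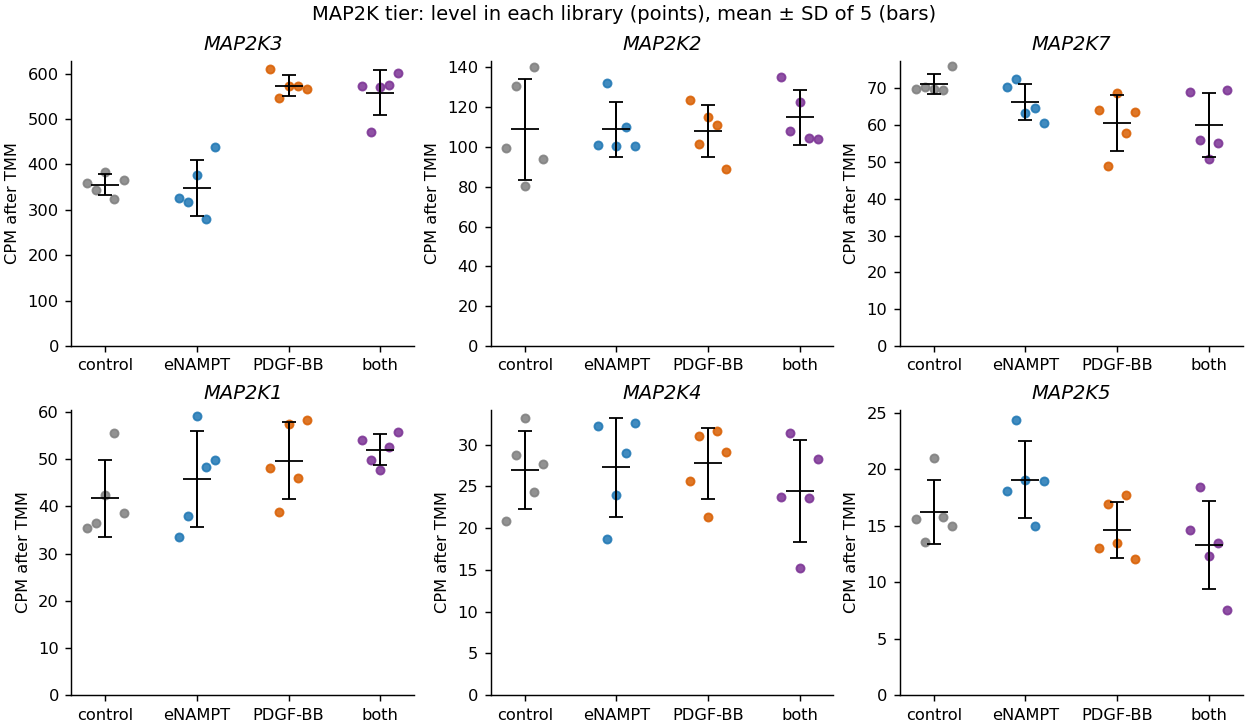
CPM of the 6 MAP2K genes in each of the 20 libraries (points; bars mark the mean and SD of 5 libraries per group). All 10 MAP2K3 libraries with PDGF-BB lie above all 10 without it, from 472 against 439 CPM at the nearest, while the groups of the other 5 genes overlap or, for MAP2K7, lie slightly apart.

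Beside MAP2K3, none of the other 5 MAP2K genes was called in any of the 8 comparisons. MAP2K1, the kinase MEK1 of the ERK branch, was at 35.5, 36.5, 42.4, 55.6 and 38.6 CPM in control. It was at 33.4, 38, 59.1, 48.5 and 49.9 CPM with eNAMPT, at 48.1, 38.8, 57.5, 46 and 58.3 with PDGF-BB, and at 54.1, 49.8, 47.8, 52.6 and 55.9 with the combination. The groups overlapped, with control replicate 4 among the PDGF-BB libraries. The average PDGF-BB effect on MAP2K1 was 0.21 on the log2 scale (95% interval 0.02 to 0.41, adjusted p 0.27, edgeR).

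MAP2K2, the kinase MEK2 of the same branch, was at 99.7, 130, 80.4, 140 and 93.8 CPM in control and at 101, 132, 100, 110 and 101 with eNAMPT. It was at 123, 101, 115, 111 and 89.0 CPM with PDGF-BB and at 135, 108, 123, 104 and 104 with the combination. All 4 groups overlapped, and the control libraries were the most widely spread. The average PDGF-BB effect was 0.03 (-0.13 to 0.19).

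MAP2K4, which phosphorylates JNK and p38 kinases, was at 20.8, 28.7, 33.2, 24.3 and 27.6 CPM in control and at 32.2, 18.7, 24, 29 and 32.6 with eNAMPT. It was at 25.7, 31, 21.3, 31.7 and 29.2 CPM with PDGF-BB and at 23.7, 31.4, 15.3, 23.6 and 28.3 with the combination. These ranges overlapped throughout, and the average PDGF-BB effect was -0.05 (-0.30 to 0.19).

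MAP2K5, which phosphorylates ERK5, was at 15.6, 13.6, 21.0, 15.8 and 15.0 CPM in control and at 18.0, 24.4, 19.1, 15.0 and 18.9 with eNAMPT. It was at 13.0, 16.9, 13.5, 17.7 and 12.1 CPM with PDGF-BB and at 14.7, 18.4, 12.4, 13.5 and 7.56 with the combination. The lowest library was combination replicate 5, and the groups overlapped. The difference of the combination from eNAMPT was -0.51 (SE 0.20, adjusted p 0.269, edgeR).

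MAP2K7, the kinase MKK7 that phosphorylates JNK, was at 69.8, 70.4, 69.9, 69.7 and 76.1 CPM in control and at 70.4, 72.6, 63.2, 64.7 and 60.7 with eNAMPT. It was at 64.1, 48.8, 68.8, 57.8 and 63.6 CPM with PDGF-BB and at 69.1, 56.1, 50.7, 55.1 and 69.7 with the combination. Every library with PDGF-BB lay below the lowest control library, by less than 1 CPM at the nearest, whereas eNAMPT libraries overlapped both. The log2 difference from control was -0.23 with PDGF-BB (adjusted p 0.459, edgeR) and -0.25 with the combination (adjusted p 0.343, edgeR), so neither was called.

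MAP2K6, the closest relative of MAP2K3 and also a p38 activator, lay below the limit of 100 counts. It averaged 0.895 CPM in control and 0.484 in eNAMPT libraries, and 1.74 after PDGF-BB and 0.896 after the combination, at 1.6 to 6 counts per library on average. No test result is reported for MAP2K6.

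The MAP2K tier summed to 621 CPM ± 12.1 (SD, n = 5) in control libraries and 615 ± 59.5 in eNAMPT libraries, against 835 ± 37.5 after PDGF-BB and 823 ± 54.2 after the combination. Per length, MAP2K3 made up 63.7% ± 3.79 of the tier in control and 62.5% ± 4.29 with eNAMPT. Its share was 74.0% ± 0.908 with PDGF-BB and 73.0% ± 2.27 with the combination. The shares with PDGF-BB, from 69.8% to 75.1%, lay above those without, from 57.5% to 68.3%.

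Among all 40 members, MAP2K3 had the highest level per length in control cells, at 94.0 CPM per kb ± 6.01 (SD, n = 5). MAPKAPK2, the p38 substrate kinase that stabilizes cytokine mRNAs, followed at 40.2 ± 4.16, and MAP4K4, an upstream activator of JNK signalling, at 28.6 ± 2.31. The lowest MAP2K3 library stood above the highest of MAPKAPK2, and the lowest of MAPKAPK2 above the highest of MAP4K4. Further down the order neighbours could rarely be separated: the library ranges overlapped in 36 of 39 neighbouring pairs, the third exception being MAP3K7 above MAPK14. Without division by length MAP2K3 led by its mean, but MAP4K4 was the higher in control replicates 1 and 2. The median over members was 4.75 CPM per kb, against 5.53 over the 12111 genes tested.

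Within the MAPK tier the highest level per length was that of MAPK3, which encodes ERK1, at 24.4 CPM per kb, and the lowest that of MAPK10, the JNK gene known mainly from neurons, at 0.164. These ranks depend on the division by length, which used 42646 annotated exon bases for MAPK10. In CPM, MAPK10 averaged 7.00 in control, above MAPK11 at 3.81, and MAPK3 was not the highest of the tier. Among the p38 genes MAPK14 (p38 alpha) stood at 7.44 CPM per kb, MAPK13 (p38 delta) at 2.39, MAPK12 (p38 gamma) at 1.90 and MAPK11 (p38 beta) at 1.42. Of the JNK genes MAPK9 stood at 5.28 and MAPK8 at 3.13 CPM per kb. MAPK14 therefore led the p38 genes, and the 3 others lay within the lower part of the member list. MAPK13 and MAPK14 are neighbours on chromosome 6 with 16572 bases between them, and MAPK11 and MAPK12 on chromosome 22 with 1887 bases between them.

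In the MAP3K tier MAP3K20, the kinase ZAK of the ribotoxic stress response, was highest at 15.5 CPM per kb, with MAP3K2 at 14.4, MAP3K3 at 11.5 and MAP3K7, the kinase TAK1 of cytokine signalling, at 9.30. MAP3K21, a mixed-lineage kinase, was lowest at 0.205. MAP4K4 was highest of the MAP4K tier and MAP4K2 lowest at 0.999 CPM per kb. Of the MAPKAPK genes MAPKAPK5 was lowest per length at 3.30, but in CPM it stood at 46.2, above MAPKAPK3 at 23.7. In every tier the highest and the lowest member by level per length were separated in all control libraries.

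**Figure D2:**
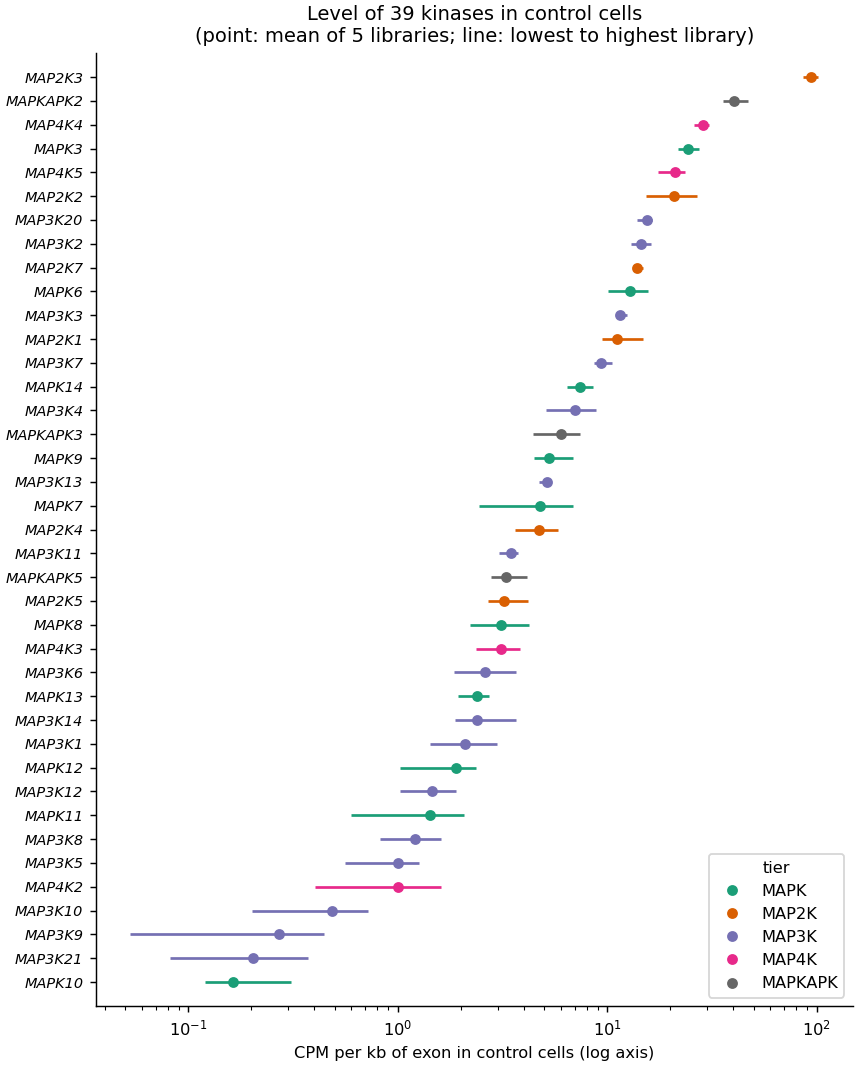
Level of 39 of the 40 members in the 5 control libraries, in CPM per kb of exon on a log axis (points: mean of 5 libraries; lines: lowest to highest library; colours: tiers). MAP2K3 leads at a mean of 94.0 and MAPK10 is lowest at 0.164, and most neighbours in the order overlap.

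Of the 39 members that passed the filter on low counts (MAP3K10 did not), 1 was called with PDGF-BB over control, MAP2K3, against 1.21% of all genes tested (1.05% higher and 0.165% lower). With the combination over control 1 was called, again MAP2K3, against 1.98% of genes (1.63% higher and 0.347% lower). With the combination over eNAMPT it was 1, against 1.53% (1.18% higher and 0.347% lower). For the average PDGF-BB effect it was 1, against 3.96% (2.96% higher and 1.01% lower). No member was called lower in any of these. These shares of members, 1 gene in 39, are not far from the background.

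At an unadjusted p under 0.05, 4 members differed with PDGF-BB over control, where 9.64% of all genes did, and 6 with the combination over control, where 10.9% did. There were 5 with the combination over eNAMPT (10.9% of genes) and 10 for the average PDGF-BB effect (15.1% of genes). The library ranges of 2 members, MAP2K3 and MAP2K7, did not overlap between PDGF-BB and control (2.29% of genes), and the same held for the combination and control (2.93% of genes). MAP2K3 alone did not overlap between the combination and eNAMPT (2.68% of genes) or between the 10 libraries with and the 10 without PDGF-BB (0.479% of genes). The median log2 fold change of the 39 members was -0.04 for the average PDGF-BB effect, against -0.01 over all genes tested.

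With eNAMPT over control 0 members were called by edgeR, where 0.0743% of genes were, and 0 had an unadjusted p under 0.05 (3.61% of genes). DESeq2 and limma-voom also called 0. With the combination over PDGF-BB 0 members were called by edgeR, DESeq2 or limma-voom, where edgeR called 0.0578% of genes, and 1 had an unadjusted p under 0.05 (3.4% of genes). The library ranges of 0 members did not overlap in that comparison (0.586% of genes), and likewise 0 with eNAMPT over control (0.652% of genes) or between the 10 libraries with and the 10 without eNAMPT (0.0248% of genes). For the average eNAMPT effect the edgeR count was 0 at the adjusted threshold (0.157% of genes) and 0 at the unadjusted one (3.63% of genes), and DESeq2 and limma-voom called 0. The interaction had 0 called members by edgeR, DESeq2 and limma-voom and 0 of 12111 genes by edgeR, with 0 members at an unadjusted p under 0.05 (3.35% of genes). The median member effect of eNAMPT, averaged over both backgrounds, was -0.01 on the log2 scale.

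**Figure D3:**
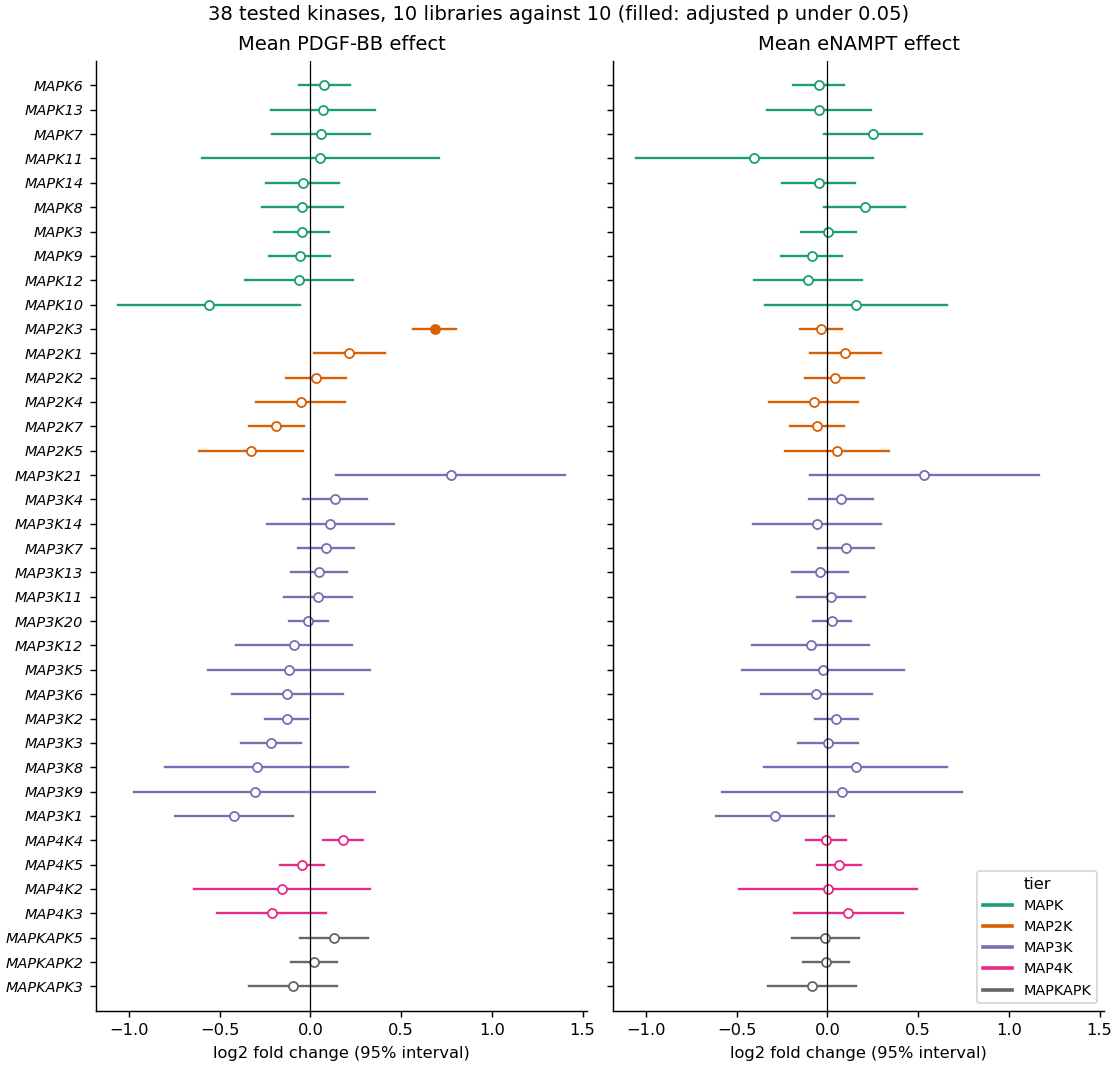
Log2 fold change of 38 of the 39 tested members for the average PDGF-BB effect and the average eNAMPT effect, with 95% intervals (filled points: called at an adjusted p under 0.05; colours: tiers). MAP2K3, at 0.69 with PDGF-BB, is the filled point, and no member is filled for eNAMPT.

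Next to MAP2K3, the member with the smallest p for the average PDGF-BB effect was MAP4K4. It stood at 367, 366, 349, 309 and 316 CPM in control and at 348, 360, 344, 309 and 324 with eNAMPT. With PDGF-BB it stood at 446, 398, 337, 358 and 375 CPM, and with the combination at 424, 408, 375, 334 and 383. The libraries with PDGF-BB were mostly the higher ones, and the groups overlapped. The average PDGF-BB effect was 0.18 (SE 0.05, adjusted p 0.0526, edgeR), just short of a call, with 8 of 10 PDGF-BB libraries above the mean of those without. DESeq2 called it (adjusted p 0.038), and leaving out control replicate 1 or 2, eNAMPT replicate 2, PDGF-BB replicate 3 or 4 or combination replicate 4 brought the edgeR adjusted p to between 0.0216 and 0.0479. A fit that also took up the replicate number called MAP4K4 for this effect (adjusted p 3.16e-04, edgeR). The call therefore depends on the fit chosen.

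MAP3K1, the kinase MEKK1 above JNK and ERK, was at 11.9, 21.3, 14.1, 11.0 and 22.9 CPM in control and at 12.1, 14.9, 19.1, 18.2 and 16.3 with eNAMPT. It was at 15.1, 15.8, 11.6, 9.94 and 21.4 CPM with PDGF-BB and at 12.2, 8.67, 10.7, 7.25 and 10.8 with the combination. Every combination library lay below the mean of each other group, but the ranges overlapped. The log2 difference of the combination was -0.71 from control (SE 0.23, adjusted p 0.132, edgeR), -0.71 from eNAMPT (adjusted p 0.134, edgeR) and -0.58 from PDGF-BB (adjusted p 1.00, edgeR). The interaction was -0.58 (95% interval -1.23 to 0.07), and none of these was called in the main fits. A fit that also took up the replicate number called MAP3K1 lower with the combination than in control (adjusted p 0.0489, edgeR). It also called MAP3K1 lower with the combination than with eNAMPT (adjusted p 0.0334, edgeR).

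MAP3K21 had a larger fold than MAP2K3 with PDGF-BB and with the combination over control but was not called. It was picked after its values were seen. It was at 2.14, 0.646, 2.95, 1.34 and 1.02 CPM in control and at 2.37, 0.951, 3.00, 2.55 and 4.24 with eNAMPT. It was at 2.66, 3.45, 4.05, 3.42 and 1.86 CPM with PDGF-BB and at 2.79, 3.79, 4.55, 5.70 and 3.29 with the combination, on 2 to 22 counts per library. Control replicate 3 lay inside the ranges of the other groups. The log2 difference from control was 0.92 with PDGF-BB (95% interval -0.01 to 1.85, adjusted p 0.523, edgeR) and 1.31 with the combination (0.40 to 2.21, adjusted p 0.166, edgeR).

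MAP3K3, the kinase MEKK3 above ERK5 and p38, was at 67.6, 69.1, 68.9, 68.1 and 76.1 CPM in control and at 71.6, 65.0, 68.4, 77.8 and 55.5 with eNAMPT. It was at 41.3, 55.1, 75.0, 62.1 and 56.5 CPM with PDGF-BB and at 56.2, 62.6, 58.2, 53.8 and 70.7 with the combination. Most PDGF-BB libraries were lower than control, with PDGF-BB replicate 3 and combination replicate 5 inside the control range. The average PDGF-BB effect was -0.22 (SE 0.08, adjusted p 0.152, edgeR), and without PDGF-BB replicate 3 it was -0.27 with an adjusted p of 0.0472 (edgeR). A fit that also took up the replicate number called MAP3K3 lower for this effect (adjusted p 0.0431, edgeR).

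MAP3K8, the kinase TPL2 that feeds MEK1 from inflammatory receptors, was at 3.98, 5.49, 2.95, 3.47 and 5.80 CPM in control and at 7.69, 10.1, 8.45, 2.87 and 4.90 with eNAMPT. It was at 7.68, 5.46, 4.32, 4.66 and 2.79 CPM with PDGF-BB and at 2.79, 4.33, 3.25, 3.88 and 5.26 with the combination. Of the eNAMPT libraries 3 lay above every control library and 2 inside the control range or below it. The eNAMPT effect over control was 0.66 (95% interval -0.04 to 1.36) and the interaction -1.004 (-2.01 to 0.00, adjusted p 0.999, edgeR). These values rest on 8 to 32 counts per library.

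In the MAPK tier no member was called. MAPK7, which encodes ERK5, was at 15.0, 35.5, 32.8, 28.3 and 12.6 CPM in control and at 30.8, 35.2, 35.4, 30.9 and 23.5 with eNAMPT. It was at 32.2, 23.8, 28.6, 33.2 and 18.6 CPM with PDGF-BB and at 29.7, 31.7, 29.3, 30.5 and 32.9 with the combination. Control replicates 1 and 5 were far below the other control libraries, and the groups overlapped. The average eNAMPT effect was 0.25 (-0.02 to 0.52, adjusted p 1.00, edgeR).

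MAPK8, which encodes JNK1, was at 21.4, 22.6, 41, 34.5 and 31.7 CPM in control and at 31.1, 40.6, 38.7, 29.6 and 32.3 with eNAMPT. It was at 26.6, 30.4, 23.5, 27.0 and 37.8 CPM with PDGF-BB and at 33.2, 37.9, 32.2, 36.2 and 29.2 with the combination. The groups overlapped, and the average eNAMPT effect was 0.21 (-0.02 to 0.43). MAPK13 was at 15.0, 19.7, 18.7, 18.4 and 14.0 CPM in control, at 22.2, 27.9, 21.5, 17.5 and 11.8 with eNAMPT, at 19.5, 24.4, 27.8, 14.9 and 22.3 with PDGF-BB, and at 19.2, 10.8, 21.8, 17.9 and 18.1 with the combination. Its groups overlapped as well, and its interaction was -0.56 (-1.13 to 0.02).

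Among kinases at the end of the cascade, the average PDGF-BB effect was -0.05 (-0.20 to 0.10) for MAPK3, which encodes ERK1, and -0.04 (-0.24 to 0.16) for MAPK14. It was 0.02 (-0.11 to 0.14) for MAPKAPK2. The interval was wider for MAPK10, at -0.56 (-1.06 to -0.06, adjusted p 0.256, edgeR). MAPK14, whose product is a substrate of MAP2K3, averaged 51.1 CPM ± 5.32 (SD, n = 5) in control and 48.7 ± 12.7 with PDGF-BB.

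The spread between replicates of the members was like that of genes at large. The median SD of log2 CPM within groups was 0.245 over 39 members and 0.247 over 12111 genes. It was lowest for MAP3K20, at 0.0942, and highest for MAPK11, at 0.588, which stood at 3.81 CPM in control. For MAP2K3 it was 0.152.

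Genes around the cascade were described from 6 lists, chosen with earlier results of these data known. The shares of called genes in them are therefore a description and not a test of the lists. Of 20 genes of RAS and RAF input, such as GRB2 and SOS1, edgeR called 0 in any comparison, where at most 3.96% of all genes were called. For the average PDGF-BB effect 4 had an unadjusted p under 0.05, as did 15.1% of all genes. Of 8 tested kinases of the same families under other symbols, such as TAOK1 and MINK1, edgeR also called 0, with 1 at that unadjusted threshold. Only edgeR results were examined for the lists. Of 18 tested scaffolds and adaptors GADD45A, a stress-induced activator of MAP3K4, rose with PDGF-BB over control (log2 fold change 0.44, adjusted p 0.0142, edgeR) from 173 CPM ± 21.9 to 234 ± 37.5 (SD, n = 5). GADD45A was the 1 call of this list in that comparison, in which 1.05% of all genes were called higher. It reached 283 ± 53.4 with the combination.

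Of 13 tested MAP kinase phosphatases, which remove the activating phosphates, 3 rose with PDGF-BB over control, against 1.05% of all genes: DUSP6, DUSP5 and DUSP1. DUSP6, the ERK-specific phosphatase, went from 47.6 CPM ± 16.1 in control to 109 ± 11.7 with PDGF-BB and 125 ± 8.55 with the combination (SD, n = 5). Its log2 fold change was 1.20 with PDGF-BB over control (adjusted p 2.91e-07, edgeR). DUSP5, a nuclear ERK phosphatase, rose by 1.06 and DUSP1, which acts on p38 and JNK, by 0.66 in that comparison. DUSP7 was added for the average PDGF-BB effect (0.30, adjusted p 0.035, edgeR), making 4, where 2.96% of all genes were called higher. The median average PDGF-BB effect over the 13 was 0.20, against -0.01 over all genes tested.

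Of 7 tested downstream kinases 1 rose for the average PDGF-BB effect, against 2.96% of all genes: RPS6KA3, the ERK-activated kinase RSK2 (0.35, adjusted p 0.025, edgeR). Of 19 transcription factors phosphorylated by MAP kinases or partners of these, 4 rose with PDGF-BB over control, against 1.05% of all genes: JUN, JUNB, MYC and ETS1. JUN stood at 396 CPM ± 44.8 in control and 493 ± 31.4 with PDGF-BB (SD, n = 5), a log2 fold change of 0.32 (adjusted p 0.0145, edgeR). With the combination over control FOSL1 and ETS2 were called as well, making 6, against 1.63% of all genes called higher. JUNB was the gene of these lists that also rose for the average eNAMPT effect (0.47, adjusted p 0.0116, edgeR), from 39.1 CPM in control to 57.8 with eNAMPT and from 58 with PDGF-BB to 75.7 with the combination. No gene of the 6 lists was called lower in any comparison.

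**Figure D4:**
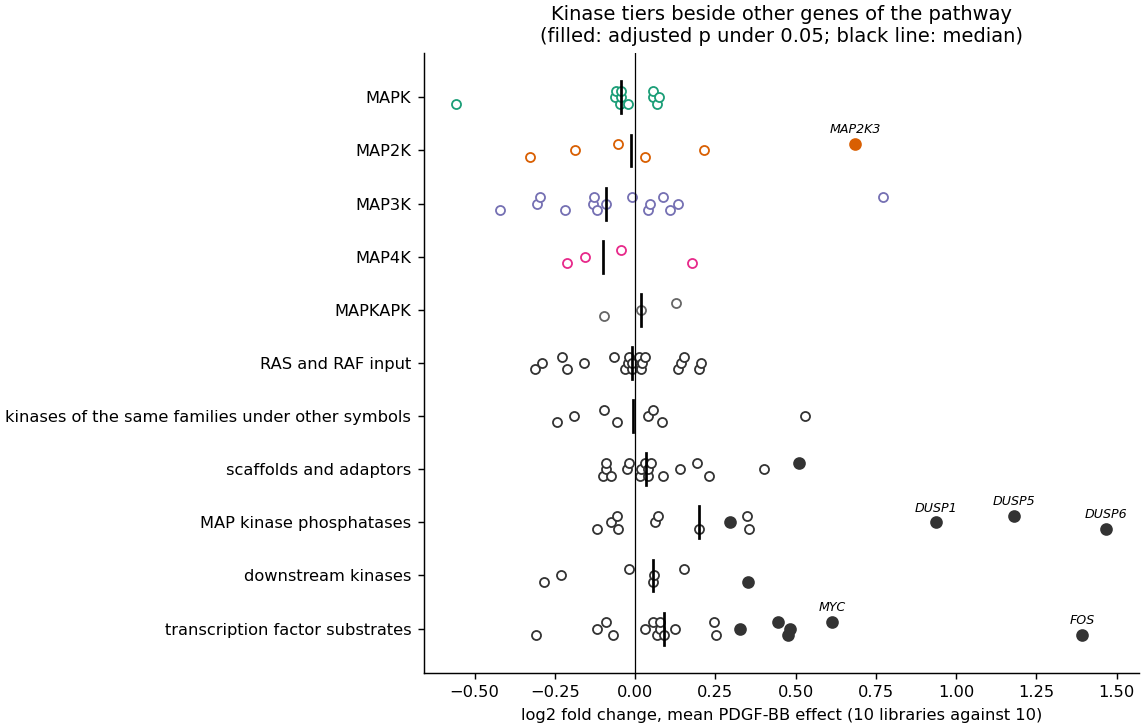
Log2 fold change of the tested members, by tier, and of the tested genes of the 6 pathway lists for the average PDGF-BB effect (points: genes; filled: called at an adjusted p under 0.05; black lines: medians). Called points lie among the MAP kinase phosphatases (4 of 13), the transcription factors (6 of 19), the scaffolds and adaptors (1 of 18), the downstream kinases (1 of 7) and the members (1 of 39). Of all genes tested, 3.96% were called.

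Some member counts are less certain than others. Exons of 15 of the 40 members overlap those of another gene, among them MAPK12 and HDAC10 on the same strand over 2763 bases, and no source used here says whether counting used strand. Close copies of at least 95% identity over at least 200 bases exist for MAP2K2, MAP2K3, MAP2K4 and MAPK6. The copy of part of MAP2K3, AC243725.1, held 0 counts, and MAP2K4P1 held 6. MAP2K3 has no exon in common with another annotated gene.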

How the data were processed

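Per the submitters' processing notes, the authors' tools were DESeq2 1.18.1, featureCounts 1.6.4, STAR 2.6.1a and FastQC 0.11.7, on build GRCh38. Per the file headers, the deposited table holds raw gene counts of the 20 libraries and the authors' log2 fold changes and p-values. A further deposited count table served as an alternative. What separates the count tables is not given in the sources used here. In 37 of 40 members the first held at least 95% of the counts of the other.

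All 58676 gene identifiers matched GENCODE 29, which gave exons. The 92 ERCC and 7 SIRV spike-ins were left out of the tests. In R 4.3.3, filterByExpr of edgeR 4.0.16 kept 12111 genes, and glmQLFit and glmQLFTest (two-sided, TMM) were fitted to all libraries with group means. P-values were Benjamini-Hochberg adjusted within each of 8 comparisons, and a gene was called at an adjusted p under 0.05. The script was tested on simulated data. The counts limit precision for genes of a few counts per library.

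Libraries are given for MAP2K genes, called members and the 2 smallest p of each comparison. 1 member and some pathway genes are counted but not reported here one by one. Highest and lowest levels are named by tier, as are pathway genes that were called. Members and lists were chosen with earlier results of these data known. Alternatives were DESeq2 1.42.0, limma-voom (limma 3.58.1), RLE factors, spike-in scaling, 2 other filters, the replicate number as a block, only the groups compared, the other table and leaving out each library.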

Additional observations from a re-analysis of the deposited data

Results flagged for a closer look

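Groups of 5 libraries were examined for a library standing apart, in 13 members and 4 groups each, 52 in all. In 3 the gap of the highest or lowest library to its neighbour exceeded 0.71 of the group's range, and chance gives about 1 in 20. MAP2K3 in combination replicate 2 stood at 471.57 CPM, below the 571.203 to 601.05 of the other combination libraries and still above every library without PDGF-BB. MAP2K7 in control replicate 5 stood at 76.0816 CPM, above the 69.7124 to 70.403 of the other control libraries. MAP3K3 in the same library also stood at 76.0816 CPM, against 67.6203 to 69.1112 in the others.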

How the results depend on the processing

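MAP2K3 kept its calls for the average PDGF-BB effect and for PDGF-BB over control under every alternative run. Leaving out each library in turn, its log2 fold change ranged from 0.65 to 0.73 for the average PDGF-BB effect, from 0.66 to 0.72 for PDGF-BB over control, from 0.62 to 0.71 for the combination over control and from 0.61 to 0.77 over eNAMPT. Spike-in scaling left 0 members called for the combination over control and 0 over eNAMPT, where it called 0.413% and 0.256% of all genes. It moved the median of all genes by -0.14 in these, -0.15 for the combination over PDGF-BB and -0.16 for the interaction, and the cause was not tested. For the average PDGF-BB effect 2 members were called by DESeq2 (4.65% of all genes) and 2 with no filter (1.9%), MAP4K4 added, and 1 to 3 when a library was left out (3.3% to 4.02%). With the replicate number as a block (replicate block), 3 members were called for the combination over control (4.21% of all genes) and 3 over eNAMPT (4.22%), namely MAP2K3, MAP4K4 and, lower, MAP3K1, and 3 for the average PDGF-BB effect (7.91% of all genes), namely MAP2K3, MAP4K4 (adjusted p 3.16e-04) and, lower, MAP3K3. The main fits did not take the numbers to pair the libraries, because the labels do not say that a number marks a shared culture. Deviations of same-numbered libraries correlated at 0.00272 to 0.184 (median 0.0941), with 13 of 30 pairs over 0.1. Between different numbers the correlations were -0.12 to 0.12 (median -0.0281), and 13 of 20 libraries correlated best with their own number. Libraries of the same number were thus somewhat more alike, which the main fits leave out. Of 2977 other values of named members, 2960 kept their direction and side of the threshold or were uncalled throughout, and 0 reversed a call, while 140 uncalled ones changed sign. Fits of only the groups compared were not run for the interaction and the average effects. DESeq2 gave no adjusted p for 5 members in the combination over eNAMPT. MAP2K3 led the mean levels with and without division by length.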
